A study of Homo sapiens with 6 samples.

Results

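NF-kB signalling was described through 9 genes: the subunit genes NFKB1, NFKB2, RELA and RELB, the inhibitor genes NFKBIA and NFKBIE, the feedback enzyme genes TNFAIP3 and BIRC3, and the surface target ICAM1. They were chosen by name, as parts or known targets of the pathway, with earlier results of these data known. They make up 9 of the 58735 genes in the expression table. RNA was sequenced from MDA-MB-231 cells, a human line from a basal-like breast cancer, that carried the non-targeting hairpin shSCR (the sample names say SCR and the labels give the genotype as WT). One group of 3 libraries came from cells given 0 Gy, and the other group of 3 from cells taken 24 h after a dose of 10 Gy from a caesium gamma source. Cells of all 6 libraries were kept in the same serum-containing medium, with no added cytokine named. The model is limited to 1 cell line, 1 dose and 1 time point, and the labels do not say whether the libraries of a group came from separate cultures, so the p-values below measure the spread between these libraries, which may be technical.

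NF-kB is a family of transcription factors that work as pairs. RELA and RELB carry the part that activates transcription, while NFKB1 and NFKB2 encode long precursors that are cut to give their DNA-binding partners. In resting cells the pairs are held in the cytoplasm by inhibitor (IkB) proteins such as those encoded by NFKBIA and NFKBIE. A kinase complex marks the inhibitors for destruction, the pairs enter the nucleus, and among the genes they switch on are NFKBIA and TNFAIP3, whose products shut the pathway down again. DNA breaks can feed into the same kinase complex through the kinase ATM, and basal-like breast cancer lines are known for NF-kB activity without an added stimulus.

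The promoters of the 4 genes whose RNA passed the test after irradiation are shown first, since 3 of them fell together and ICAM1 rose. Each sequence is a RefSeq promoter on GRCh38.p14 that runs from 250 bases before to 50 bases after a start site, written 5′ to 3′ along the gene's strand. Capitals mark matches to the kappaB consensus, the degenerate motif that NF-kB pairs are known to bind, searched on both strands. It was taken as GGGRNNYYCC, or GGRRNNYCCC on the other strand (R is A or G, Y is C or T, N is any base). For NFKB1, the first of its 2 promoter entries is shown, at chr4:102501109-102501408 on the plus strand. NFKBIA is at chr14:35404700-35404999 on the minus strand, BIRC3 at chr11:102317234-102317533 on the plus strand, and ICAM1 at chr19:10270870-10271169 on the plus strand.
NFKB1: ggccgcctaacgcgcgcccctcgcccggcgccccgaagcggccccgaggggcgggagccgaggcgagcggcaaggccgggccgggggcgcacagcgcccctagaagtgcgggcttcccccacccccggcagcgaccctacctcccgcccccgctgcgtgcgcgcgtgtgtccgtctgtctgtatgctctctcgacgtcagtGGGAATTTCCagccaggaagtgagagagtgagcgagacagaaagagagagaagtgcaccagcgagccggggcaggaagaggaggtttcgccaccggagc
NFKBIA: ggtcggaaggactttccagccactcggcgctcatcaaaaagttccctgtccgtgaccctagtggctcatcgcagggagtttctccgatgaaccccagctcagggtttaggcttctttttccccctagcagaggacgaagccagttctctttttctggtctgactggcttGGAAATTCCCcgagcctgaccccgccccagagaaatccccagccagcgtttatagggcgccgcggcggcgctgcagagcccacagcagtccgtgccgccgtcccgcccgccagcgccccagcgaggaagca
BIRC3: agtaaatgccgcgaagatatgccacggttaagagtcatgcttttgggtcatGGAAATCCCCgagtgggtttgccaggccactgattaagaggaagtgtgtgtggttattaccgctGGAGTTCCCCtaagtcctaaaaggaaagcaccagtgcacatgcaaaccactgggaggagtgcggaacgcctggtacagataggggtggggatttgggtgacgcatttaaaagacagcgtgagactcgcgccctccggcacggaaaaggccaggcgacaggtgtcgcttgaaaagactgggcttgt
ICAM1: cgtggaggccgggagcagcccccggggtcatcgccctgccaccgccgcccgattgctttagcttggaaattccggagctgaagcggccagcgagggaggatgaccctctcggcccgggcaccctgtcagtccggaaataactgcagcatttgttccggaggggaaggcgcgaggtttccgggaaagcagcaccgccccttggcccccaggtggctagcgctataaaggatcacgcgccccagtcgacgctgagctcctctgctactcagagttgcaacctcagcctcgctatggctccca

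In these windows, NFKB1 had a match that began at base -49 from its start site, where its other promoter entry held none, and NFKBIA had 1 at -81. BIRC3 had matches at -199 and -135. The ICAM1 window held no full match, which says only that these exact letters were not in it. It did hold ggaaattccg, which differs from GGRRNNYCCC at the last base only. Near matches were not counted in any window. Of the members not printed, TNFAIP3 had matches at -67 and -55, NFKB2 had them in 2 of its 3 promoters, and neither of the 2 RELA promoters held one. RELB and NFKBIE had no entry. A match was found in 6 of the 11 promoters of the members, or 54.5%, where 11.3% of all 35116 promoters and 13.6% of the 12528 promoters of genes averaging 1 FPKM or more held one. The members' promoters had a median GC content of 67.7%, against 65% in that last set. The members were chosen as parts or known targets of the pathway, so their share of matches is not independent of that choice. The 11 promoters are also not separate genes, since NFKB2 has 3 entries and NFKB1 and RELA have 2 each. A match is a description of the sequence and does not show that a factor was bound.

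Levels are given as FPKM, fragments divided by gene length and by library depth, so they can be compared between genes per unit of length. The libraries held 15643641 to 28861781 reads, recovered from the FPKM values, and each value of a member rested on 252 to 5457 of them. Mitochondrial reads made up 1.94% to 2.44% in every library. The line's markers were present, with VIM at 247 to 312 FPKM and AXL at 180 to 262 FPKM, while of the luminal and epithelial markers ESR1, PGR and CDH1 stayed at or under 0.479 FPKM, EPCAM was at 1.20 to 1.51 FPKM and ERBB2 at 6.76 to 8.08 FPKM. Of the leukocyte markers, PTPRC and CD3E stayed at or under 0.00710 FPKM and CD14 ran from 1.31 to 3.05 FPKM. The endothelial marker PECAM1 was at 1.22 to 1.23 FPKM at 0 Gy and 1.88 to 1.97 FPKM at 10 Gy, with CDH5, the defining endothelial cadherin, at or under 0.1002 FPKM in every library. In bulk RNA, fewer cells of a kind and less RNA per cell cannot be told apart.

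Unirradiated cells expressed all 9 genes, and NFKBIA was the most abundant per length. Its mean was 62.3 ± 2.74 (SD, n = 3) FPKM, above 94.3% of the 12128 genes tested. NFKB2 followed at 43.3 ± 0.738 FPKM, then BIRC3 at 29.4 ± 0.979 FPKM and RELA at 25.6 ± 0.418 FPKM, each with no library in common range with its neighbour. Next came NFKBIE at 18.7 ± 1.87 FPKM, NFKB1 at 17.8 ± 0.838 FPKM and RELB at 15.3 ± 1.59 FPKM, where NFKBIE overlapped NFKB1 and NFKB1 overlapped RELB. ICAM1 stood at 10.3 ± 1.23 FPKM, and TNFAIP3 was lowest at 3.23 ± 0.0681 FPKM, above 28.6% of tested genes. After 10 Gy the order differed in 2 places: RELA stood above BIRC3, without overlap, and ICAM1 reached RELB, with which it overlapped.

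**Figure D1:**
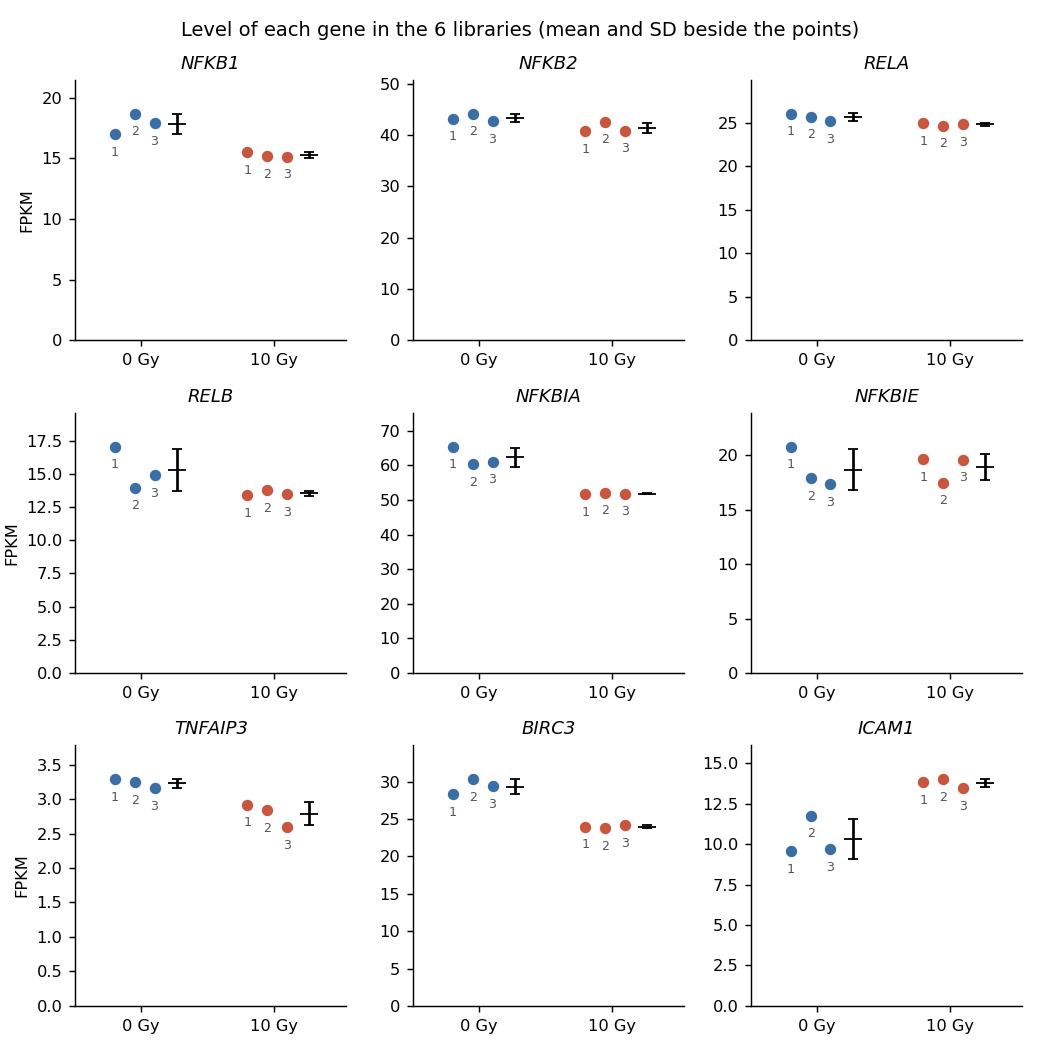
FPKM (y axis, from 0, 1 scale per panel) of the 9 genes in the 3 libraries at 0 Gy (blue) and the 3 at 10 Gy (red), numbered by replicate, with the mean and SD beside them. The groups are apart for 8 genes and overlap for NFKBIE, and ICAM1 is the gene whose 10 Gy libraries lie above those at 0 Gy.

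At 24 h after 10 Gy, ICAM1 rose, and NFKB1, NFKBIA and BIRC3 fell. The other 5 genes did not pass the test. A gene was called when its limma adjusted p was under 0.05, on log2(FPKM + 1) and adjusted over all 12128 genes, and changes below are on that log2 scale, 10 Gy minus 0 Gy. Irradiation moved many genes: 35.6% of those tested were called, 11.9% higher and 23.7% lower. The members' 4 calls of 9, 1 higher and 3 lower, were near that background, so the count is not in itself a result about these genes. Groups that did not overlap were likewise common, at 51.9% of tested genes, beside 8 of the 9 members. Called changes of at least 1.3-fold were rarer, at 5.77% of tested genes, and ICAM1 was the member among them. It lay just past that threshold, which is 0.379 on the log2 scale, and fell short of it without replicate 1 at 0 Gy (0.34), replicate 3 at 0 Gy (0.35) or replicate 2 at 10 Gy (0.378).

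How the libraries are scaled matters for changes of this size. The deposited values carry a scaling factor of 0.973 to 0.991 in the 0 Gy libraries and 1.03 to 1.04 in the 10 Gy libraries. Of the called genes, 33.4% were higher as deposited, 48.7% after median-of-ratios scaling, 63.9% after upper quartile scaling and 74.5% after TPM scaling. TPM scaling moved the median change of all genes by 0.12, from -0.04 to 0.08. A scaling moves all genes nearly alike, so the changes are also given relative to that median, as a description. As deposited and under TPM scaling, ICAM1 stood at 0.43 and 0.46, BIRC3 at -0.24 and -0.24, NFKBIA at -0.22 and -0.21, and NFKB1 at -0.17 and -0.17. RELB stood at -0.12 and -0.12, TNFAIP3 at -0.12 and -0.16, NFKBIE at 0.06 and 0.07, NFKB2 at -0.03 and -0.02, and RELA at -0.01 and 0.00.

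**Figure D2:**
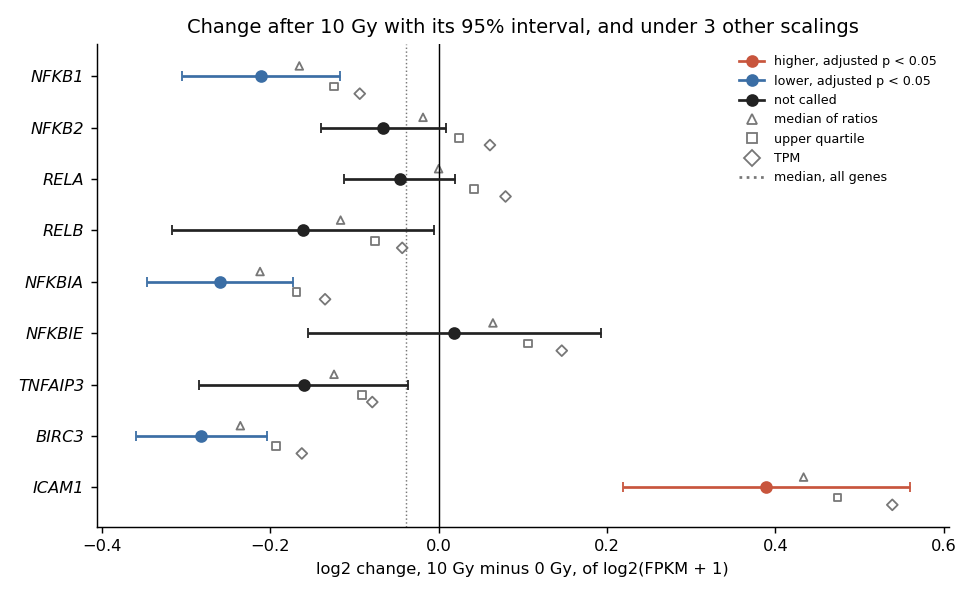
Change of each gene after 10 Gy (x axis, log2(FPKM + 1), 10 Gy minus 0 Gy), with the 95% interval from limma as a bar, coloured by call, and the change after 3 other scalings as open symbols. ICAM1 lies right of 0 and BIRC3, NFKBIA and NFKB1 left of it under all 4 scalings, while NFKB2 and RELA lie left of 0 as deposited and right of it after upper quartile and TPM scaling.

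Among the subunits, NFKB1 fell and the other 3 were not called. NFKB1 encodes the precursor of the usual partner of RELA and lies at chr4:102501329-102617302 on GRCh38. It was at 17.0, 18.7 and 17.9 FPKM in the 0 Gy libraries and at 15.5, 15.2 and 15.1 FPKM in the 10 Gy libraries. All 3 irradiated libraries lay below all 3 unirradiated ones, and the irradiated ones differed from each other by less. The change was -0.21 (SE 0.04, 95% interval -0.30 to -0.12, limma adjusted p = 0.00739). After upper quartile scaling it was -0.12 (adjusted p = 0.0690) and after TPM scaling -0.09 (adjusted p = 0.188), so the call rested on the scaling, with adjusted p from 0.000786 to 0.188 over all settings.

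NFKB2, at chr10:102394110-102402529, encodes the precursor of the partner of RELB and is the subunit whose processing defines the slower, non-canonical branch of the pathway. Its level was 43.2, 44.1 and 42.7 FPKM at 0 Gy and 40.7, 42.6 and 40.8 FPKM at 10 Gy. The groups were apart only narrowly, with the highest irradiated library just under the lowest unirradiated one. The change was -0.07 (interval -0.14 to 0.01, limma adjusted p = 0.143), and its sign turned under 2 other scalings, to 0.02 with upper quartile and 0.06 with TPM.

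RELA, at chr11:65653596-65663094, encodes the main activating subunit. Its values differed little between libraries: 26.0, 25.7 and 25.2 FPKM at 0 Gy, then 24.9, 24.7 and 24.8 FPKM. The change was -0.05 (interval -0.11 to 0.02, limma adjusted p = 0.237), again with the sign turned to 0.04 after upper quartile and 0.08 after TPM scaling. RELA shares 9 exon bases with the opposite-strand gene AP001362.2, which had 20 to 48 reads a library.

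RELB, at chr19:45001430-45038198, encodes the activating subunit of the non-canonical branch and is itself a known NF-kB target. It stood at 17.1, 14.0 and 14.9 FPKM at 0 Gy and at 13.4, 13.8 and 13.5 FPKM at 10 Gy. Replicate 1 at 0 Gy was the high library, and replicate 2 at 0 Gy lay just above the highest irradiated one. The change of -0.16 (interval -0.32 to -0.01) was not called, with limma adjusted p = 0.0969. Without replicate 1 at 0 Gy it was -0.09 (adjusted p = 0.133), without replicate 2 at 0 Gy it was -0.22 and was called (adjusted p = 0.0312), and adjusted p ran from 0.0301 to 0.619 over all settings.

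Of the inhibitors, NFKBIA fell, and NFKBIE was not called. NFKBIA, at chr14:35401511-35404749, encodes IkB-alpha, the fast-acting inhibitor that NF-kB itself induces. It was at 65.5, 60.4 and 61.1 FPKM at 0 Gy and at 51.6, 52.2 and 51.9 FPKM at 10 Gy. The irradiated libraries lay close together and all sat well below the unirradiated ones. The change was -0.26 (SE 0.04, interval -0.35 to -0.17, limma adjusted p = 0.00269), and it was called in all 18 alternative settings, with adjusted p up to 0.0168. It was smaller after upper quartile scaling, at -0.17, and TPM scaling, at -0.13.

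NFKBIE, at chr6:44258166-44265788, encodes IkB-epsilon, an inhibitor known for its slower resynthesis. Its libraries mixed: 20.8, 17.9 and 17.3 FPKM at 0 Gy and 19.6, 17.5 and 19.6 FPKM at 10 Gy. The highest and the lowest of the 6 values both came from unirradiated libraries. The change was 0.02 (interval -0.16 to 0.19, limma adjusted p = 0.861), and its sign turned when any of 4 single libraries was left out. The gene SLC35B2, which shares no exon bases with it, begins 276 bases beyond its end on the same strand and had 40.5 to 47.6 FPKM.

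The feedback enzymes both had lower means after 10 Gy, and BIRC3 passed the test. BIRC3, at chr11:102317450-102339403, encodes a ubiquitin ligase of the TNF receptor complex that also holds the non-canonical branch in check. Its level was 28.4, 30.3 and 29.4 FPKM at 0 Gy and 24.0, 23.7 and 24.2 FPKM at 10 Gy. The irradiated libraries lay close together, and all were below the lowest unirradiated one. The change was -0.28 (SE 0.03, interval -0.36 to -0.20, limma adjusted p = 0.00146), the largest fall of the 9 genes, and 8.46% of tested genes fell by more. It was called in all 18 alternative settings, with adjusted p up to 0.0196, and was -0.16 after TPM scaling.

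TNFAIP3, at chr6:137867188-137883312, encodes A20, the enzyme that edits ubiquitin chains to end signalling from the receptors. It was at 3.29, 3.25 and 3.15 FPKM at 0 Gy and at 2.92, 2.84 and 2.60 FPKM at 10 Gy, on 252 to 441 reads. The groups did not overlap, and replicate 3 at 10 Gy was the lowest library. The antisense gene AL357060.1, which shares 95 exon bases with it, had 5 to 18 reads. The change of -0.16 (SE 0.05, interval -0.28 to -0.04) lay at the edge of the threshold, with limma adjusted p = 0.0504. It was called in 6 of the 17 alternatives in which it was tested, with adjusted p from 0.0309 to 0.427, and since its level is low, the added 1 FPKM makes its change look smaller: with 0.1 FPKM added it was -0.21 (adjusted p = 0.0483).

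ICAM1, at chr19:10270835-10286615, encodes the adhesion molecule on the cell surface that leukocytes hold on to. It was the member that rose. Its level was 9.54, 11.7 and 9.68 FPKM at 0 Gy and 13.8, 14.0 and 13.5 FPKM at 10 Gy. Replicate 2 stood above the other two at 0 Gy and still below all 3 irradiated libraries, which were close together. The change was 0.39 (SE 0.07, interval 0.22 to 0.56, limma adjusted p = 0.00707), or 1.31-fold on that scale and 1.33-fold as a ratio of the mean FPKM. Of all tested genes, 3.54% rose by more. It was called in all 18 alternative settings, at a change of 0.34 to 0.54 and an adjusted p up to 0.0354. Of the genes that overlap it, the antisense genes AC011511.2 and AC011511.5 had at most 2 reads in any library, and its neighbour ICAM4 was listed at 0 in all 6.

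Ratios within a library do not depend on how the libraries are scaled, and they were used to compare the members with each other. The ratio of NFKB2 to NFKB1 was 2.54, 2.36 and 2.39 at 0 Gy and 2.62, 2.80 and 2.70 at 10 Gy, with means of 2.43 ± 0.0964 and 2.71 ± 0.0911 (SD, n = 3). So the precursor gene of the non-canonical branch stood higher relative to NFKB1 in each irradiated library than in any unirradiated one. RELB to RELA gave no such split, at 0.655, 0.543 and 0.592 against 0.537, 0.558 and 0.542. Between the inhibitors, NFKBIA to NFKBIE was 3.14, 3.37 and 3.53 at 0 Gy and 2.63, 2.98 and 2.64 at 10 Gy, without overlap.

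RELA was then taken as the common measure, a choice made after the data had been seen, since its FPKM differed little between libraries. Relative to RELA, ICAM1 went from 0.403 ± 0.0481 to 0.555 ± 0.0121. BIRC3 went from 1.14 ± 0.0486 to 0.966 ± 0.00720, and NFKBIA from 2.43 ± 0.0820 to 2.09 ± 0.0221. NFKB1 went from 0.696 ± 0.0386 to 0.616 ± 0.00624, and TNFAIP3 from 0.126 ± 0.000671 to 0.112 ± 0.00666. In these 5 genes the groups did not overlap, while the ratios of NFKB2, RELB and NFKBIE to RELA overlapped. The share of all genes whose ratio to RELA did not overlap was not computed. As FPKM it was 51.9% of tested genes, so this count is not in itself a result about the members. A ratio shows that 2 genes changed unequally and not that RELA itself stayed the same.

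**Figure D3:**
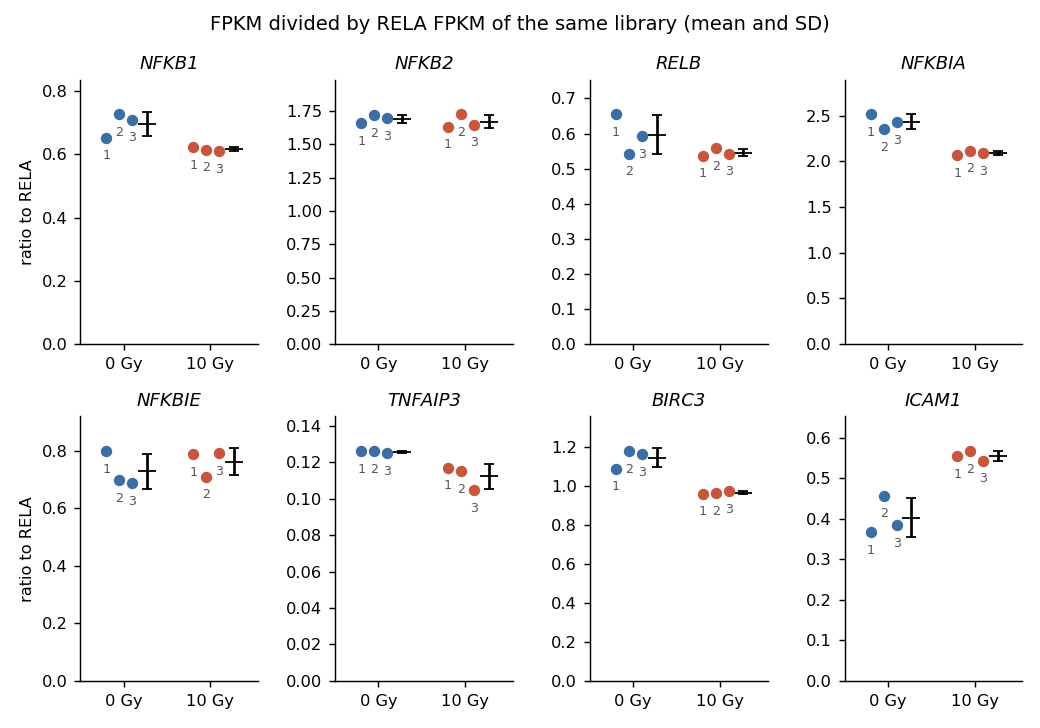
FPKM of 8 genes divided by that of RELA in the same library (y axis, from 0, 1 scale per panel) for the 3 libraries at 0 Gy (blue) and the 3 at 10 Gy (red), numbered by replicate, with the mean and SD. NFKB1, NFKBIA, TNFAIP3 and BIRC3 are lower and ICAM1 higher in all 3 irradiated libraries, and the groups of NFKB2, RELB and NFKBIE overlap.

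Around these 9 genes, 115 other genes of the pathway were grouped into 6 lists by role, also with earlier results of these data known. The filter of a mean of at least 1 FPKM was passed by 103 of them. Of these, 14 were called higher and 29 lower, or 13.6% and 28.2%, beside 11.9% and 23.7% of all tested genes. Their median change was -0.04, the same as that of all genes to 2 decimals. The 12 untested genes were REL, IL1RAP, UBE2V1, CCL2, CCL5, LTB, PDGFB, TNFRSF9, TNF, BMP2, VCAM1 and SELE. VCAM1 and SELE, adhesion molecules that endothelial cells switch on through NF-kB, were listed at 0 in all 6 libraries.

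Of the other subunits and IkB proteins, 4 of 5 were tested: 2 rose (50%) and 1 fell (25%), beside 11.9% and 23.7% of all tested genes. BCL3, a nuclear IkB protein that works with the products of NFKB1 and NFKB2, was at 14.9, 14.3 and 13.6 FPKM at 0 Gy and at 19.5, 19.5 and 18.4 FPKM at 10 Gy, a change of 0.40 (SE 0.04, limma adjusted p = 0.00105). NFKBID, another nuclear IkB protein, was at 2.01, 1.95 and 2.09 FPKM and then at 3.04, 2.83 and 2.67 FPKM, a change of 0.35 (SE 0.06, adjusted p = 0.00452) that was 0.56 after TPM scaling. The third nuclear member, NFKBIZ, had a change of -0.25 (SE 0.06, adjusted p = 0.0147), which was not called after upper quartile or TPM scaling. NFKBIB, the remaining tested gene, had a change of -0.12 and was not called (adjusted p = 0.204). The list's median change was 0.11, and it was above 0 under all 4 scalings, from 0.11 to 0.27. With 4 genes, 2 that rose and 2 with changes below 0 as deposited, that median lies between them and describes none of them. So within the IkB family, BCL3 and NFKBID rose where NFKBIA fell, under each of the 4 scalings.

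Among 23 receptors and adaptors tested, 4 rose (17.4%) and 3 fell (13.0%), beside 11.9% and 23.7% of all tested genes. Their median change was -0.01 (0.10 after TPM scaling), beside -0.04 (0.08) for all genes. TNFRSF1B, the second TNF receptor, was at 2.81, 2.76 and 2.55 FPKM at 0 Gy and at 4.14, 4.48 and 4.37 FPKM at 10 Gy, a change of 0.52 (SE 0.05, limma adjusted p = 0.000838). TNFRSF12A, the receptor of TWEAK and an inducer of the non-canonical branch, was at 141, 128 and 138 FPKM and then at 87.5, 81.8 and 88.1 FPKM, a change of -0.65 (SE 0.05, adjusted p = 0.000510). The adaptor MYD88, which carries signals from Toll-like and interleukin-1 receptors, had a change of 0.28, and IRAK1, the kinase it recruits, one of -0.38, both called in all 18 alternatives, with MYD88 at 0.42 after TPM scaling. IL1R1, the receptor of interleukin-1, had a change of 0.29 (adjusted p = 0.0289) that was not called without replicate 1 or 3 at 0 Gy or replicate 2 or 3 at 10 Gy (adjusted p from 0.0634 to 0.101), and that was 0.53 after TPM scaling. The adaptor BCL10 had a change of -0.11 (adjusted p = 0.0376) that was called in 6 of 18 alternatives, and with 1 library left out it was called only without replicate 2 at 0 Gy (otherwise adjusted p from 0.0643 to 0.129).

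Of the 12 kinases and their partners, 1 rose (8.33%) and 4 fell (33.3%) as deposited, beside 11.9% and 23.7% of all tested genes. The median change was -0.06. Under TPM scaling, however, 4 were called higher (33.3%) and none lower, where 25.7% of all tested genes were called higher and 8.79% lower. MAP3K14, the kinase that starts the non-canonical branch and a protein that BIRC3 helps to destroy, was at 12.3, 12.6 and 12.4 FPKM at 0 Gy and at 13.7, 14.3 and 14.1 FPKM at 10 Gy. Its groups were apart, and its change of 0.17 (SE 0.03, limma adjusted p = 0.00765) was called in all 18 alternatives, at 0.25 after upper quartile and 0.30 after TPM scaling. IKBKG, the regulatory part of the kinase complex, had a change of -0.20 (adjusted p = 0.0205), and IKBKE, a related kinase, one of -0.20 (adjusted p = 0.00862), and neither was called after upper quartile or TPM scaling. The change of IKBKG was called in 10 of 18 alternatives. It was not called after median-of-ratios scaling (adjusted p = 0.0505), with no filter (adjusted p = 0.0594) or with the replicate block (adjusted p = 0.0551). Nor was it called without replicate 3 at 0 Gy, or replicate 1 or 3 at 10 Gy (adjusted p from 0.0606 to 0.0641). TAB1, a partner of the kinase MAP3K7, had a change of -0.14 (adjusted p = 0.0483) that was called in 7 of 18 alternatives, and with 1 library left out only without replicate 2 at 0 Gy (otherwise adjusted p from 0.0795 to 0.148).

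In the list of 22 tested ubiquitin enzymes and other regulators, 2 rose and 2 fell (9.09% each), beside 11.9% and 23.7% of all tested genes. Their median change was -0.04 (0.09 after TPM scaling), beside -0.04 (0.08) for all genes. BIRC2, the close relative of BIRC3 on the same chromosome, was at 57.8, 58.0 and 56.5 FPKM at 0 Gy and at 43.7, 45.3 and 46.3 FPKM at 10 Gy, a change of -0.34 (SE 0.03, limma adjusted p = 0.000709). So both of these paralogs had lower levels in every irradiated library, and both were called under all 4 scalings, with BIRC2 at -0.22 after TPM scaling. TAX1BP1, an adaptor of A20, had a change of 0.22 (adjusted p = 0.00535), and FBXW11, a subunit of the ligase that marks IkB proteins, one of 0.15 (adjusted p = 0.00925), and after TPM scaling these were 0.36 and 0.29. UBE2N, which builds the chains that activate the kinases, had a change of -0.18 (adjusted p = 0.00461), not called after upper quartile or TPM scaling.

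Of the 7 genes of the branch that links DNA breaks to NF-kB, 1 rose (14.3%) and 3 fell (42.9%) as deposited, beside 11.9% and 23.7% of all tested genes. Under TPM scaling, 3 were called higher (42.9%) and 2 lower (28.6%), where 25.7% of all tested genes were called higher and 8.79% lower. ATM, the kinase that senses double-strand breaks, was at 3.55, 3.96 and 3.98 FPKM at 0 Gy and at 5.14, 5.00 and 4.99 FPKM at 10 Gy, a change of 0.32 (SE 0.05, limma adjusted p = 0.00351). PARP1, which binds broken DNA, was at 57.1, 55.6 and 55.6 FPKM and then at 43.7, 43.6 and 45.0 FPKM, a change of -0.34 (SE 0.03, adjusted p = 0.000624). After TPM scaling the change of ATM was 0.50 and that of PARP1 -0.22. PIAS4, the SUMO ligase that modifies IKBKG after DNA damage, had a change of -0.19 (adjusted p = 0.0173), which was not called without replicate 1 or replicate 2 at 10 Gy (adjusted p of 0.0627 and 0.0641), after upper quartile scaling (-0.11, adjusted p = 0.128), after TPM scaling (-0.08, adjusted p = 0.283) or with no filter (adjusted p = 0.0556). The list's median change was 0.02 (0.15 after TPM scaling), beside -0.04 (0.08) for all genes.

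Of 35 tested genes on the list of other known NF-kB targets, 16 fell and 4 rose as deposited, and 11 were called lower and 9 higher after TPM scaling. As deposited these calls were 45.7% lower and 11.4% higher, beside 23.7% and 11.9% of all tested genes. The median change was -0.13 beside -0.04 for all genes. After TPM scaling the calls were 31.4% lower and 25.7% higher, beside 8.79% and 25.7% of all tested genes. The median was then -0.01 beside 0.08 for all genes. The largest falls were those of CXCL3 and CXCL2, chemokines that attract neutrophils. CXCL3 was at 25.6, 27.2 and 26.1 FPKM at 0 Gy and at 10.2, 9.68 and 10.4 FPKM at 10 Gy, a change of -1.30 (SE 0.04, limma adjusted p = 3.92e-05). CXCL2 was at 41.6, 37.5 and 36.0 FPKM and then at 19.1, 18.3 and 18.8 FPKM, a change of -0.995 (SE 0.05, adjusted p = 0.000257). F3, tissue factor, which starts blood clotting, had a change of -0.63 (SE 0.04, adjusted p = 0.000286).

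The 4 target genes that rose were C3, IL1B, CD82 and TNFAIP2. C3, the central component of complement, was at 14.6, 15.8 and 15.7 FPKM at 0 Gy and at 22.8, 22.9 and 22.3 FPKM at 10 Gy, a change of 0.54 (SE 0.04, limma adjusted p = 0.000445). IL1B, the cytokine interleukin-1 beta, was at 3.17, 3.26 and 2.95 FPKM and then at 4.99, 4.46 and 4.10 FPKM, a change of 0.42 (SE 0.07, adjusted p = 0.00428). CD82, a membrane protein that restrains cell movement, had a change of 0.26 (SE 0.04, adjusted p = 0.00383), or 0.39 after TPM scaling. C3, IL1B, CD82, CXCL2, CXCL3 and F3 were called in the same direction in every alternative in which they were tested. Like ICAM1, the first 3 of these stood higher in all 3 irradiated libraries.

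**Figure D4:**
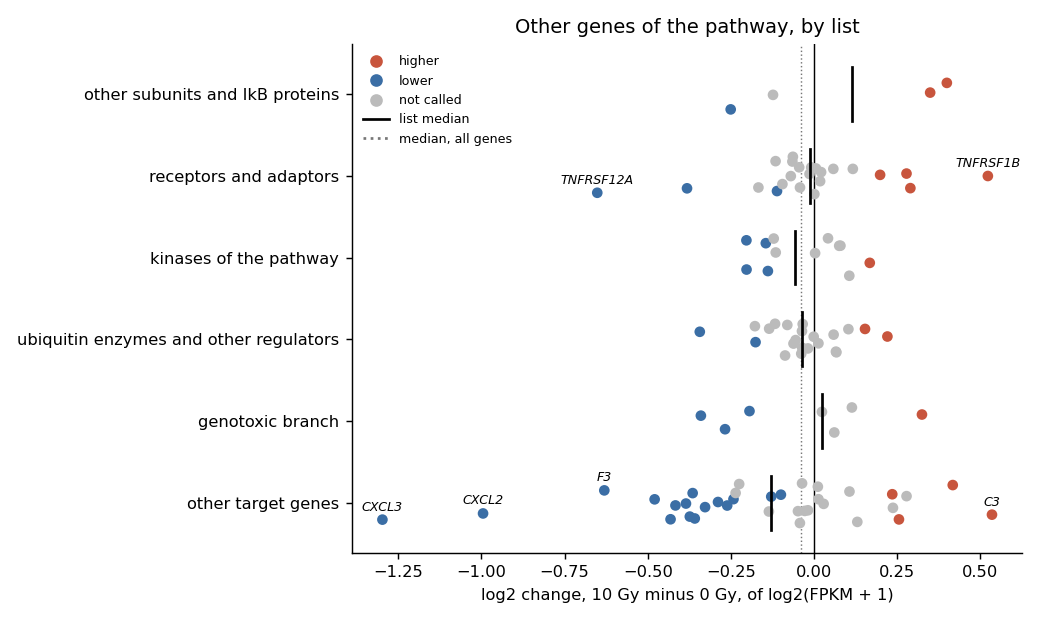
Change after 10 Gy (x axis, log2(FPKM + 1), 10 Gy minus 0 Gy, as deposited) of the 103 tested pathway genes outside the 9 members, 1 point per gene, by list and coloured by call, with the list median as a black bar and the median of all genes dotted. The other target genes reach from -1.30 (CXCL3) to 0.54 (C3) around a median of -0.13, and after TPM scaling that median is -0.01.

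For 3 members, the genes with the most similar pattern over the 6 libraries were looked up among the 4780 genes that averaged 10 FPKM or more. They are a description, since all 6 libraries share the same split by dose. For ICAM1 they were SERPINB9 (Pearson r = 0.994), FUCA1 (r = 0.992) and KIF3B (r = 0.992). For NFKBIA they were SNRPD1 and UBL4A (r = 1.00 for both) and PNMA1 (r = 0.998), and for NFKB2 they were POLE2 (r = 0.983), NRAS (r = 0.982) and RPL21P75 (r = 0.980).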

How the data were processed

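RNA-sequencing values of 6 MDA-MB-231 shSCR libraries were analysed, 3 at 0 Gy and 3 taken 24 h after 10 Gy, grouped by the treatment in the sample labels. The values the authors deposited are FPKM, computed at the sequencing company from libraries enriched for polyA RNA. The submitters' processing notes name HISAT2 and GRCh38. The counting program and its strand setting are not given in the sources used here, so reads of antisense or overlapping genes may not be told apart. Gene coordinates and lengths in the table matched GENCODE 29 for 100% of its 58735 genes. The gene lengths deposited beside the FPKM values are merged exon lengths. Multiplying FPKM by gene length and by the depth implied for each library gave whole reads (within 0.05) for 100% of values above 0. These recovered reads gave the depth, and one alternative test, limma's voom.

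Expression was compared with limma 3.58.1 in R 4.3.3 on log2(FPKM + 1), using its moderated (eBayes) variances with a mean-variance trend, two-sided. The 12128 genes that averaged 1 FPKM or more were tested. A fold change is thus on the log2(FPKM + 1) scale, which understates that of low genes. The Benjamini-Hochberg adjustment ran over all tested genes. The procedure was run on simulated data in which few genes changed and the groups did not differ in scaling. That simulation cannot decide the calls here that depend on scaling. The members and lists were chosen with earlier results of these data known. The other genes named were, per list, up to 3 called genes with the largest rise and up to 3 with the largest fall whose groups did not overlap. TNFAIP2, NFKBIB and the untested genes were named after their values were seen. Values of 1 marker gene and of 1 listed gene are not reported here. Of 2 rows named SOD2, the more abundant was used. Alternatives covered the pseudocount, the filter, the scaling, the replicate block, the eBayes settings, protein-coding genes alone, voom and each library left out. With TPM scaling, 1 was added to the TPM values. Plots used matplotlib 3.10.9 under Python 3.11.15.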

Additional observations from a re-analysis of the deposited data

How the results depend on the processing

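ICAM1, NFKBIA and BIRC3 kept their direction and their call under all 18 alternatives, and NFKB1 under 16. Under upper quartile and TPM scaling the change of NFKB1 was -0.124 and -0.0937 (not called), that of NFKB2 turned to 0.0243 and 0.0609, and that of RELA to 0.0421 and 0.0794. BCL10 turned to 0.0059 under TPM scaling. RELB was called among protein-coding genes alone (-0.16), with voom (-0.18) and without 0 Gy replicate 2, its changes running from -0.222 to -0.0858 over the libraries left out. NFKBIE ran from -0.0307 to 0.0949 when single libraries were left out, below 0 without 0 Gy replicate 2 or 3 or 10 Gy replicate 1 or 3. TNFAIP3 was called with a pseudocount of 0.1 (-0.21) or 0.5 (-0.18), without the trend or with robust eBayes (-0.16 in both), among protein-coding genes (-0.16) and with voom (-0.21). With protein-coding genes alone and with voom, 5 members were called lower. Of all tested genes, 29.9% and 27.6% were then called lower, beside 23.7% in the main test.

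Counts of calls moved with the settings, and where no construction shows it, the cause was not tested. For all genes, calls higher numbered 874 with a mean of at least 5 FPKM. That is 12.0% of the 7262 genes then tested, beside 11.9% in the main test. Calls higher numbered 2556 with upper quartile and 3113 with TPM scaling, and 852 to 1393 with 1 library left out, lowest without 10 Gy replicate 2 (852) or 1 (875). Calls lower numbered 2734 of those 7262 genes (37.6%, beside 23.7% in the main test), and 1815 of 31650 genes with no filter (5.73%). They numbered 1444 with upper quartile and 1066 with TPM scaling, and 1808 to 2630 with 1 library left out, lowest without 10 Gy replicate 2 (1808) or 1 (1830). Calls higher and lower made up 21.1% and 11.9% of all tested genes with upper quartile scaling, and 25.7% and 8.79% with TPM scaling. With median-of-ratios scaling they made up 16.0% and 16.9%, with no filter 3.47% and 5.73%, and with the replicate block 9.38% and 19.5%. The shares were 12.2% and 22.2% without the trend, 14.8% and 29.9% among protein-coding genes, and 15.0% and 27.6% with voom. With 1 library left out they ran from 7.03% to 11.5% and from 14.9% to 21.7%. The list counts that follow stand beside these shares. For the other subunits and IkB proteins, 1 was called higher with at least 5 FPKM, where NFKBID was not tested. Calls lower among them were 0 with no filter, upper quartile or TPM scaling. For receptors and adaptors, 2 were called higher with no filter or at least 5 FPKM, and in the latter TNFRSF1B and IL1R1 were not tested. With 1 library left out 2 to 4 were called higher, 2 each without 0 Gy replicate 3 or 10 Gy replicate 2 or 3. For the kinases, 3 were called higher with upper quartile, 4 with TPM and 2 with median-of-ratios scaling. Calls lower among them were 1 with no filter, 0 with upper quartile or TPM scaling, 1 with median-of-ratios scaling, 1 with the replicate block, 2 without the trend and 1 to 3 with 1 library left out (1 without 10 Gy replicate 1, and 2 without 0 Gy replicate 1 or 3 or 10 Gy replicate 2 or 3). For ubiquitin enzymes, 4 were called higher with TPM scaling, and lower were 1 with upper quartile or TPM scaling, 4 among protein-coding genes or with voom, and 2 to 4 with 1 library left out, the most without 0 Gy replicate 2. For the genotoxic branch, 0 were called higher with at least 5 FPKM, where ATM was not tested, 3 with upper quartile or TPM scaling and 2 with voom. For the other target genes, 7 were called higher with upper quartile and 9 with TPM scaling, and 10 lower with no filter.

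As ratios of recovered reads, RELB to RELA was 0.331 and 0.303 at 0 and 10 Gy, NFKB2 to NFKB1 1.74 and 1.94, and NFKBIA to NFKBIE 3.08 and 2.53, because reads are not divided by gene length. The labels do not say whether same-numbered libraries were paired. Deviations of same-numbered libraries from their group means correlated at -0.04, -0.03 and -0.10. Those of differently numbered libraries correlated at -0.05 to 0.09. Deviations from a mean of 3 libraries depend on each other and carry noise, so these values cannot decide it. With the replicate block, 3503 genes were called, and ICAM1, NFKBIA, BIRC3 and NFKB1 were among them. With 3 libraries a group, the 95% intervals of NFKB2, RELA and NFKBIE included 0.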

Other observations

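Unirradiated libraries differed among themselves in these genes, an observation made after the data had been seen. Replicate 1 at 0 Gy was the highest of the 3 in 57 of the 112 tested genes of the members and lists (50.9%), in 5 of the 9 members, and in 43.8% of all tested genes. Replicate 3 at 0 Gy was the highest in 16 of the 112 (14.3%) and in 23.4% of all tested genes. Among the members, the highest unirradiated library held 1.22 times the lowest for RELB, 1.20 times for NFKBIE and 1.23 times for ICAM1. At 10 Gy the same ratio was 1.03 for RELB, 1.12 for NFKBIE and 1.04 for ICAM1. Its cause was not tested.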
